A study of Mus musculus with 10 samples.

Results

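Transcripts of 10 genes that set the amount, the turnover and the transcription of cellular actin were followed in mouse bone marrow-derived macrophages with and without WASp, a protein that activates branched actin assembly in blood cells. The genes are the cytoplasmic actins Actb and Actg1, the actin-binding proteins Pfn1, Tmsb4x, Cfl1, Tagln2 and Coro1a, and the transcription factor Srf with its cofactors Mrtfa and Mrtfb. They were taken by gene symbol from a table of normalized read counts, in which they are 10 of 57010 gene identifiers. All 10 passed a minimum mean normalized read count of 10 over the libraries, which left 12455 genes for testing.

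Marrow from femurs of wild-type (WT) or WASp knockout (WKO) mice was grown for 7 days in RPMI with 20 ng/mL recombinant mouse M-CSF, the growth factor that drives macrophage differentiation. There were 4 groups: 2 unconfined WT libraries, 2 unconfined WKO libraries, 3 confined WT libraries and 3 confined WKO libraries. Confined cells were pressed for 1 h to a height of 3 µm under micropillars made of PDMS, a silicone. Unconfined cells are labelled as controls without confinement, and whether they were placed in the device is not given in the sources used here. Neither are the strain, sex and age of the mice, nor whether replicates came from separate mice or cultures. The p-values therefore measure the spread between these libraries, which may be technical.

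Recovered totals ran from 13295701 to 19329908 reads per library, and 16306 to 17817 genes had at least 1 read. Was, the gene that encodes WASp, had 1474 ± 234 normalized counts (SD, n = 2) in unconfined WT and 148 ± 8.82 (n = 2) in unconfined WKO cells. Confined cells had 1612 ± 40.1 (n = 3) in WT and 107 ± 15.5 (n = 3) in WKO, so that each library matched its genotype label. All 8 macrophage markers checked (such as Csf1r and Adgre1) were tested genes, and their summed count was 179561 to 208283 in the 5 WT and 241895 to 314561 in the 5 WKO libraries. Most of this sum was Lyz2, with 100507 to 132963 in WT and 157886 to 200203 in WKO libraries. Csf1r and Mertk were also higher in every WKO library, whereas Adgre1, Cd68, Itgam, Fcgr1 and Cd14 overlapped between genotypes. Several sums of markers of other cells were also higher in WKO libraries. The summed count of 14 stromal markers was 237 to 2093 in WT and 1072 to 12212 in WKO libraries. That of 10 neutrophil and progenitor markers was 2568 to 10876 in WT and 7015 to 30172 in WKO libraries. For 6 B lineage markers the sum was 410 to 874 in WT and 1572 to 5198 in WKO libraries. Most of the B lineage sum was Ighm (388 to 728 and 1517 to 5093), and the other B lineage markers overlapped between genotypes. The sum of 5 platelet markers was 3590 to 5191 in WT and 4871 to 8016 in WKO libraries. Most of it was Pf4, with 3484 to 4873 in WT and 4703 to 7697 in WKO libraries. Ppbp overlapped, with 34 to 156 in WT and 33.7 to 270 in WKO libraries, and Gp1bb was 0 in all libraries. The sum of 4 dendritic markers went the other way, with 3447 to 6319 in WT and 2291 to 3480 in WKO libraries. Almost all of it was Itgax, with 3439 to 6294 in WT and 2237 to 3458 in WKO libraries. Flt3 did not fall, with 1.17 to 18.2 in WT and 12.4 to 28.4 in WKO libraries, and Zbtb46 and Ccr7 overlapped between genotypes. Erythroid markers summed to at most 84.4, and T cell markers to at most 5.26, with Trac at 0 in all libraries. Confined WKO replicate 5 stood apart, with the highest value of 13 of the 14 stromal markers. The part of such cells in the differences described here was not tested. In such bulk RNA, fewer cells of a type and less RNA per cell cannot be told apart.

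Actin cycles between free monomers and filaments. Thymosin beta 4 (Tmsb4x) holds monomers in reserve, profilin 1 (Pfn1) delivers them to growing filament ends, and cofilin 1 (Cfl1) severs filaments and returns monomers to the pool. Free monomers also bind the cofactors MRTF-A (Mrtfa) and MRTF-B (Mrtfb) and keep them from acting on SRF. When monomers are used up, the cofactors enter the nucleus and drive SRF target genes, among them actins and Srf itself. A separate set of SRF cofactors, the ternary complex factors (TCF), couples SRF to growth factor signalling and to immediate early genes.

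SRF binds a sequence of 10 bases called the CArG box. RefSeq promoter windows (GRCm38.p6, 250 bases before to 50 after a gene start) were found for 9 of the 10 genes (all but Actb), and the CArG box was searched in them on both strands. It was present in windows of Actg1 and Srf, or 2 of 9 genes, against 488 of 27025 genes with a window (1.81%). The upstream parts of these windows are shown because they hold the CArG matches of both genes. They lie at chr11:120348543-120348745 for Actg1 and chr17:46556176-46556412 for Srf, both read on the minus strand, with the CArG boxes in capitals.
Actg1 upstream: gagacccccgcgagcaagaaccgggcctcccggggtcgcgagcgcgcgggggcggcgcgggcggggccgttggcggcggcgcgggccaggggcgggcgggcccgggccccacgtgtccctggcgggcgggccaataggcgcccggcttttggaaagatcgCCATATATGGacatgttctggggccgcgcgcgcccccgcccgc
Srf upstream: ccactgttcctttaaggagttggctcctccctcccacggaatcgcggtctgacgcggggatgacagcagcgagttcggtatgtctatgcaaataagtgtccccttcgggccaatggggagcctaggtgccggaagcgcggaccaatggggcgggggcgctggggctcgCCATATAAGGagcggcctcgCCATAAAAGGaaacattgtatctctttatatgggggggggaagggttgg
The stretches end at the outermost GENCODE start, which lies upstream of the RefSeq start. Counted from the RefSeq start, the box of Actg1, CCATATATGG, lies 90 to 81 bases upstream. In the Srf window CCATATAAGG lies 82 to 73 and CCATAAAAGG 62 to 53 bases before the RefSeq start. A match is a description of the letters and was not read as a bound site.

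In both conditions the actin transcripts were lower in WKO than in WT cells, by about the same ratio for both actins, and in confined cells these differences passed the test. Actb (ENSMUSG00000029580, chr5:142903115-142906754, minus strand of GRCm38), which encodes beta-actin, had 101460 and 102712 normalized counts in unconfined WT replicates 1 and 3. In unconfined WKO replicates 1 and 3 it had 72672 and 68441. Confined WT replicates 2, 3 and 6 had 131204, 129736 and 139407, and confined WKO replicates 1, 2 and 5 had 74687, 96419 and 98039. Every WKO library thus lay under every WT library. Within each genotype the confined libraries were above the unconfined ones, though confined WKO replicate 1 was only just so.

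Actg1 (ENSMUSG00000062825, chr11:120345690-120348542, minus strand) encodes gamma-actin, which differs from beta-actin in few residues. It had 30339 and 30404 normalized counts in unconfined WT and 20601 and 21396.5 in unconfined WKO replicates 1 and 3. Confined WT replicates 2, 3 and 6 had 32115, 30506 and 32599, and confined WKO replicates 1, 2 and 5 had 22259, 19175 and 23827. Again no WKO library reached a WT library. The confined and unconfined libraries of one genotype lay close together.

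In confined cells Actb in WKO was 0.668 times its WT level (95% interval 0.554 to 0.805), a log2 difference of -0.58 ± 0.124 (SE) with a limma adjusted p of 0.0316. Actg1 was 0.683 times (0.586 to 0.796), at -0.55 ± 0.101 and a limma adjusted p of 0.0171. These were 2 of the 10 genes, against 2.59% of all genes tested in this comparison (1.2% counting lower genes). Both calls rest on few libraries. Leaving out any 1 of the 3 confined WT libraries ended both, with adjusted p between 0.103 and 0.109 for Actb and between 0.0663 and 0.0787 for Actg1. Over all genes the calls of this comparison went from 322 to between 58 and 141 in these fits. With all genes tested at any level, adjusted p was 0.185 for Actb and 0.075 for Actg1, and with the confined libraries fitted alone 0.134 and 0.0828. Without confined WKO replicate 5, the library with the highest stromal marker sum, the differences were -0.65 (adjusted p = 0.0122) and -0.62 (adjusted p = 0.00486).

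In unconfined cells the same ratios were 0.691 (0.549 to 0.869) for Actb and 0.691 (0.573 to 0.834) for Actg1. Their log2 differences of -0.53 ± 0.151 and -0.53 ± 0.124 did not pass, at limma adjusted p of 0.241 and 0.127. None of the 10 genes passed in unconfined cells, where 0.145% of all genes did, and 5 of the 10 had an unadjusted p below 0.05, as had 1196 of the 12455 genes tested. DESeq2 on the recovered whole reads called both actins there, with adjusted p of 0.0285 and 0.00781, and called 179 genes in all against 18 by limma. The difference of the Actb and Actg1 genotype effects between conditions was not past the threshold either, with a limma adjusted p of 0.999 for each.

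**Figure D1:**
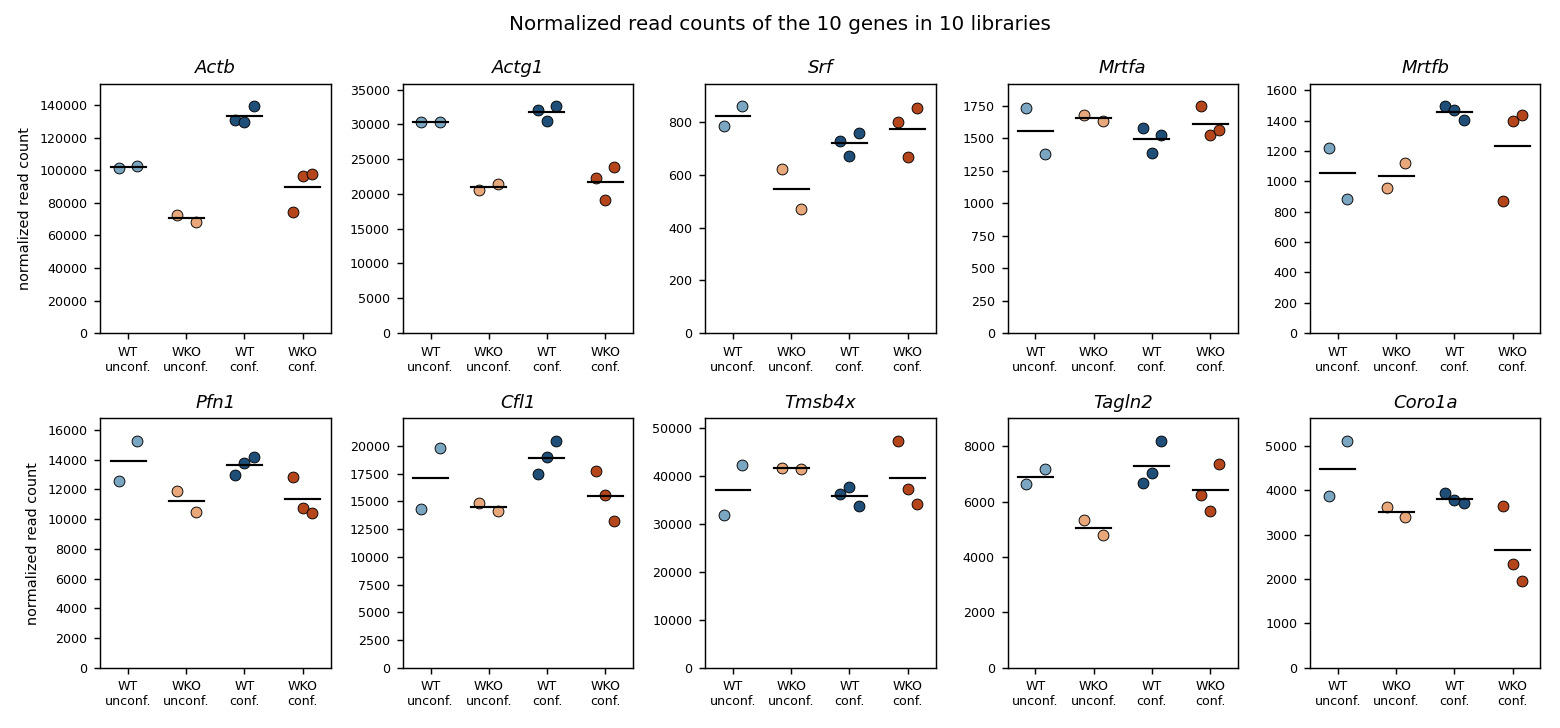
Normalized read counts (vertical axes, from 0) of the 10 genes in each of the 10 libraries (points), grouped by genotype and confinement, with the group mean as a line. For Actb, Actg1 and Coro1a the 5 WKO points lie below the 5 WT points.

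Together the actins took 0.893 to 0.911% of reads in unconfined WT and 0.631 to 0.66% in unconfined WKO libraries. In confined cells the shares were 1.03 to 1.11% in WT and 0.639 to 0.773% in WKO. Actb ranked between 7 and 13 among all genes by normalized count in each library. Actg1 has near-identical processed pseudogenes, so reads may be split between copies. The most abundant, Gm12715, matched 76.4% of an Actg1 transcript at 98.8% identity and had a mean normalized count of 229, and the 7 similar genes summed to 0.943% of the Actg1 mean. The 76.4% is the highest share over the annotated coding transcripts of Actg1, which can be short. It is not a share of the 2658 exon bases.

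Confinement was accompanied by a higher Actb level in both genotypes, but neither difference passed. The log2 difference was 0.39 ± 0.138 (SE) in WT with a limma adjusted p of 0.263, and 0.34 ± 0.138 in WKO with an adjusted p of 0.298. With 1 library left out it was 0.35 to 0.41 in WT and 0.27 to 0.46 in WKO, where the highest value, without confined WKO replicate 1, had an adjusted p of 0.0273. That fit called 1043 genes in place of 214. Actg1 differed by 0.06 in WT and 0.05 in WKO (adjusted p = 0.874 and 0.896). Upper-quartile scaling turned the sign of both to -0.0094 and -0.06. None of the 10 genes passed for confinement in WT, where 1.16% of all genes did, or in WKO, where 1.72% did. The confined WT libraries lay above the unconfined ones for Actb, Actg1 and Mrtfb (18.3% of genes tested) and below them for Srf (17.7%). The confined WKO libraries lay above for Actb, Srf and Tagln2 (14.5%) and below for none (13.8%).

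The ratio of Actb to Actg1 per kilobase of exon within a library does not depend on the scaling. It was 3.32 and 3.35 in unconfined WT and 3.5 and 3.17 in unconfined WKO replicates 1 and 3. It was 4.05, 4.22 and 4.24 in confined WT replicates 2, 3 and 6. In confined WKO cells it was 3.33 in replicate 1, 4.99 in replicate 2 and 4.08 in replicate 5. All 3 confined WT libraries were above all 4 unconfined libraries, while confined WKO replicate 1 lay among the unconfined ones. The ratio itself was not tested.

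**Figure D2:**
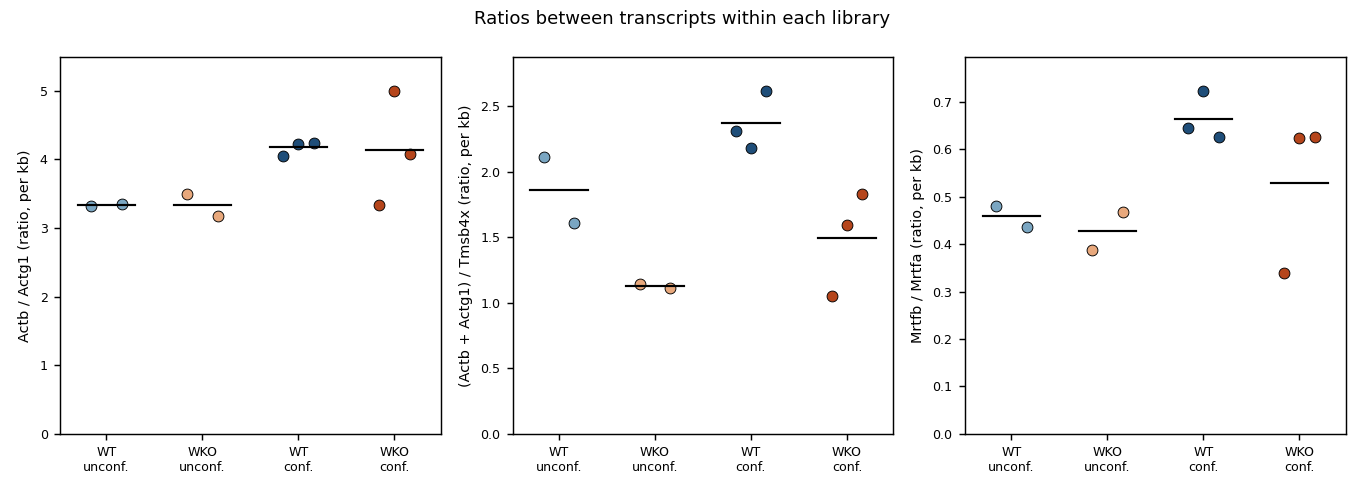
Ratios between transcripts of one library, per kilobase of exon (vertical axes, from 0), of Actb to Actg1, of both actins to Tmsb4x and of Mrtfb to Mrtfa, with 1 point per library and the group mean as a line. Confined WT libraries lie above unconfined WT libraries in each panel, and confined WKO replicate 1 is the lowest confined library in each.

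The monomer-binding transcripts did not pass the test in any comparison. Tmsb4x (ENSMUSG00000049775, chrX:167207093-167209315, minus strand) had 31997 and 42390 normalized counts in unconfined WT replicates 1 and 3, and 41707 and 41507 in unconfined WKO replicates 1 and 3. It had 36181, 37673 and 33753 in confined WT replicates 2, 3 and 6, and 47333, 37227 and 34162 in confined WKO replicates 1, 2 and 5. The groups overlapped in every comparison except that of confined WT with unconfined WKO, which the design does not test. The log2 difference of WKO from WT was 0.18 in unconfined (limma adjusted p = 0.826) and 0.13 in confined cells (0.707).

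The actin transcripts were low relative to that of this reserve protein in WKO libraries. The ratio of summed Actb and Actg1 to Tmsb4x, per kilobase, was 2.11 and 1.61 in unconfined WT replicates 1 and 3, and 1.15 and 1.11 in unconfined WKO replicates 1 and 3. In confined cells it was 2.31, 2.18 and 2.61 in WT replicates 2, 3 and 6, and 1.05, 1.59 and 1.83 in WKO replicates 1, 2 and 5. Within each condition the WT and WKO libraries did not overlap, which was also so for each actin alone. The ratio was not tested. It is one of transcripts and holds no measure of protein.

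Pfn1 (ENSMUSG00000018293, chr11:70651850-70654644, minus strand) had 12560 and 15250 normalized counts in unconfined WT and 11912 and 10490 in unconfined WKO replicates 1 and 3. It had 12984, 13793 and 14145 in confined WT replicates 2, 3 and 6, and 12857, 10756 and 10386 in confined WKO replicates 1, 2 and 5. WKO libraries were below WT libraries of the same condition, by a small margin for confined WKO replicate 1. The log2 differences were -0.31 in unconfined (limma adjusted p = 0.515) and -0.27 in confined cells (0.253).

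Cfl1 (ENSMUSG00000056201, chr19:5490455-5495201, plus strand) had 14342 and 19826 normalized counts in unconfined WT and 14858 and 14130 in unconfined WKO replicates 1 and 3. It had 17433, 19013 and 20449 in confined WT replicates 2, 3 and 6, and 17752, 15623 and 13205 in confined WKO replicates 1, 2 and 5. The genotypes overlapped in both conditions. The log2 differences of WKO from WT were -0.22 in unconfined (limma adjusted p = 0.764) and -0.3 in confined cells (0.316). Exons of Snx32 on the opposite strand cover 16.5% of the Cfl1 exon bases, and whether the counting used strand is not given in the sources used here. Snx32 itself had a mean normalized count of 197.

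Transgelin 2 (Tagln2, ENSMUSG00000026547, chr1:172500047-172507380, plus strand), an actin-bundling protein of the calponin family, had 6620 and 7168 normalized counts in unconfined WT and 5329 and 4782 in unconfined WKO replicates 1 and 3. It had 6685, 7037 and 8189 in confined WT replicates 2, 3 and 6, and 6255, 5646 and 7347 in confined WKO replicates 1, 2 and 5. The unconfined WKO libraries were the lowest of all, and the confined genotypes overlapped. WKO differed from WT by -0.45 in unconfined (limma adjusted p = 0.306) and -0.19 in confined cells (0.466) on the log2 scale.

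Coronin 1A (Coro1a, ENSMUSG00000030707, chr7:126699773-126707787, minus strand) is the coronin of blood cells and binds filaments and the Arp2/3 complex. It had 3863 and 5110 normalized counts in unconfined WT and 3617 and 3405 in unconfined WKO replicates 1 and 3. It had 3930, 3773 and 3716 in confined WT replicates 2, 3 and 6, and 3658, 2345 and 1947 in confined WKO replicates 1, 2 and 5. Each of the 5 WKO values was under each of the 5 WT values, though replicate 1 of confined WKO was near the WT range. WKO differed from WT by -0.34 in unconfined (limma adjusted p = 0.712) and -0.57 ± 0.19 (SE) in confined cells (0.144). Without confined WKO replicate 1 the confined difference was -0.83 (adjusted p = 0.0097), and confined WKO differed from unconfined WKO by -0.72 (0.0125) in place of -0.46 (0.36). Without confined WKO replicate 5 these differences were -0.38 (0.284) and -0.26 (0.666). The unconfined difference was -0.14 without unconfined WT replicate 3 and -0.54 without replicate 1.

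Across both conditions, Actb, Actg1 and Coro1a were the members with all 5 WKO libraries below all 5 WT libraries, against 3.33% of genes tested; no member had the reverse order, which 3.38% of genes had. Within unconfined cells the WKO libraries lay below the WT libraries for 6 of the 10 genes, against 22.7% of genes tested, and within confined cells for 4, against 10.4%. None lay wholly above, as did 22.2% and 10.7% of genes tested. The median log2 difference of the 10 genes was -0.32 in unconfined and -0.27 in confined cells, against 0.0022 and 0.0036 over all genes tested. The genes were listed with results of these data known, so these counts describe the list.

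**Figure D3:**
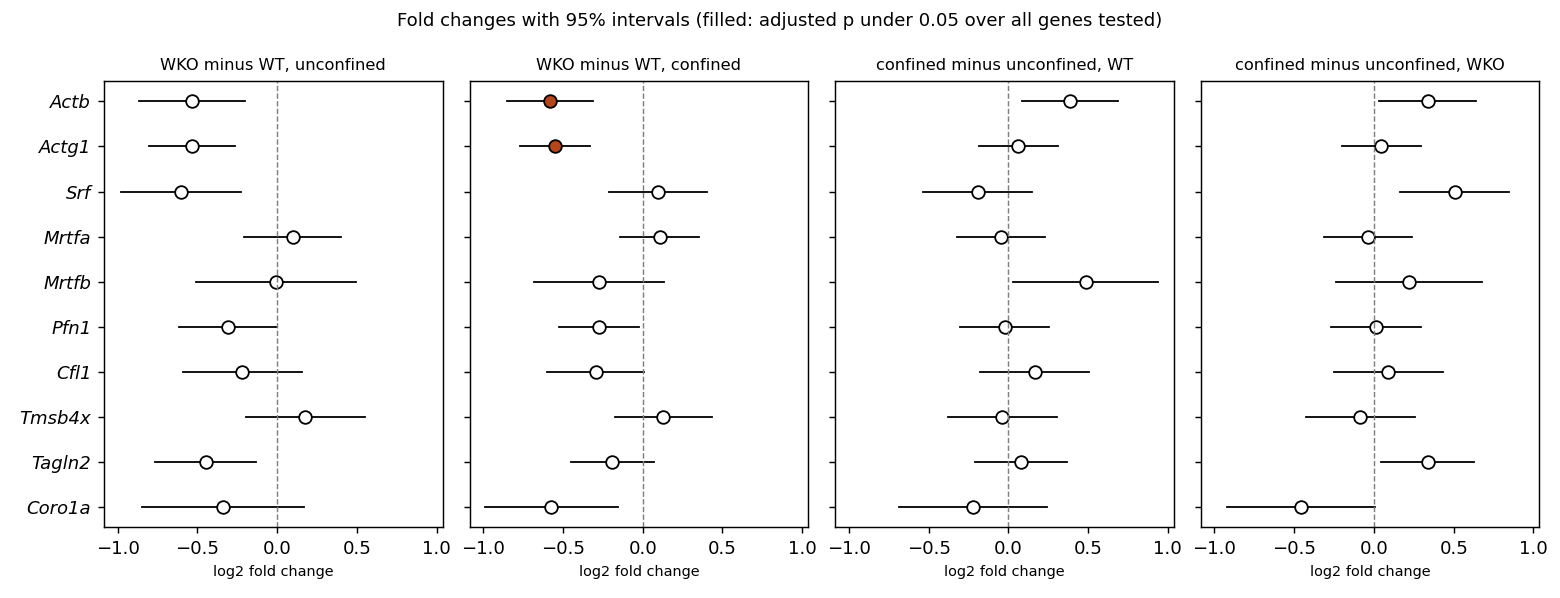
Log2 fold changes (horizontal axes) of the 10 genes with 95% intervals from limma, 1 panel for each of the 4 comparisons; filled points passed an adjusted p of 0.05 over all genes tested. The filled points are Actb and Actg1 in confined WKO against confined WT cells.

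Srf and its MRTF cofactors did not pass the test in any comparison. Srf (ENSMUSG00000015605, chr17:46548329-46556175, minus strand), which carries 2 of the CArG boxes printed above, had 787 and 861 normalized counts in unconfined WT replicates 1 and 3. Unconfined WKO replicates 1 and 3 had 624.5 and 469.7. Confined WT replicates 2, 3 and 6 had 728, 673 and 761, and confined WKO replicates 1, 2 and 5 had 803, 667 and 853. Confined WT libraries were thus below unconfined WT libraries, whereas confined WKO libraries were above unconfined WKO libraries.

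In unconfined cells Srf was lower in WKO by a log2 difference of -0.6 ± 0.172 (SE, limma adjusted p = 0.241), and in confined cells the difference was 0.1 (0.794). Confinement gave -0.19 in WT (0.679) and 0.51 ± 0.157 in WKO (0.161). The unconfined WKO libraries differed from each other, so that the unconfined genotype difference was -0.4 without unconfined WKO replicate 3 and -0.81 without replicate 1. The WKO confinement difference was 0.3 and 0.71 in these fits. The interaction, which is the confinement difference in WKO minus that in WT, was 0.7 ± 0.221 with an unadjusted p of 0.00841 and a limma adjusted p of 0.999, and ran from 0.49 to 0.9 with 1 library left out. No gene passed the interaction test by limma, edgeR or DESeq2 (0%), and 258 of 12455 had an unadjusted limma p below 0.05.

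Mrtfa (ENSMUSG00000042292, chr15:81012281-81190757, minus strand) varied little. It had 1729 and 1378 normalized counts in unconfined WT and 1675 and 1628 in unconfined WKO replicates 1 and 3. It had 1575, 1385 and 1522 in confined WT replicates 2, 3 and 6, and 1745, 1524 and 1560 in confined WKO replicates 1, 2 and 5. The largest of its 4 log2 differences was 0.11, between confined WKO and WT cells (95% interval -0.14 to 0.35, limma adjusted p = 0.7).

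Mrtfb (ENSMUSG00000009569, chr16:13256481-13417529, plus strand) had 1223 and 884 normalized counts in unconfined WT and 953 and 1122 in unconfined WKO replicates 1 and 3. It had 1494, 1471 and 1401 in confined WT replicates 2, 3 and 6, and 869, 1400 and 1434 in confined WKO replicates 1, 2 and 5. Of the 6 confined libraries, 5 were above all unconfined libraries, and confined WKO replicate 1 was the lowest of all 10. The log2 confinement difference was 0.48 ± 0.209 (SE) in WT (limma adjusted p = 0.38) and 0.22 in WKO (0.682).

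The ratio of Mrtfb to Mrtfa per kilobase was 0.481 and 0.436 in unconfined WT and 0.387 and 0.469 in unconfined WKO replicates 1 and 3. It was 0.645, 0.722 and 0.626 in confined WT replicates 2, 3 and 6. In confined WKO replicates 1, 2 and 5 it was 0.339, 0.625 and 0.625. Apart from confined WKO replicate 1, confined libraries were above all unconfined libraries. This ratio was not tested either.

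Per kilobase of exon, the mean normalized count over the 10 libraries fell in the order Actb (37879), Tmsb4x (28004), Actg1 (9903), Cfl1 (5859), Pfn1 (5203), Tagln2 (3125), Coro1a (1271), Mrtfa (257), Srf (249.8) and Mrtfb (136). Neighbours whose library ranges overlapped were Actb and Tmsb4x, Cfl1 and Pfn1, Mrtfa and Srf, and Srf and Mrtfb. Actb was above Tmsb4x in 7 of 10 libraries, and each of the other 3 libraries was WKO. Mrtfa was above Srf in 6 of 10.

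Genes linked to MRTF and SRF in other systems were counted from a list of 25, of which 23 could be tested. In unconfined cells 1 of them was lower in WKO and 0 higher, against 0.0963% and 0.0482% of all genes tested. In confined cells 2 were higher and 3 lower, against 1.38% and 1.2%. The confined count was 2 without confined WT replicate 2 or 3 and 8 without confined WKO replicate 5. It was 3 without a filter, 12 by DESeq2 and 1 with the confined libraries fitted alone. Over all genes the same comparison had 322 calls, and 80 and 58 without confined WT replicate 3 and 2, 419 without confined WKO replicate 5, 186 without a filter, 775 by DESeq2 and 90 with those groups alone. The list median was -0.19 in unconfined and 0.13 in confined cells. Vcl, which encodes the adhesion protein vinculin, had 2366 to 2602 normalized counts in the 5 WT libraries and 1054 to 1422 in the 5 WKO libraries. In log2 units it fell in WKO by 1.05 in confined cells (limma adjusted p = 0.00141) and by 0.94 in unconfined cells (0.0346). The unconfined call was lost in 5 of the alternative fits, among them without any 1 of the 4 unconfined libraries. Flna, which encodes the filament cross-linker filamin A, had 35297 to 38824 in confined WT and 19396 to 25393 in confined WKO libraries. It fell by 0.68 (0.016). This call was lost in 4 of the alternative fits, among them without confined WT replicate 2 (0.0768) or 3 (0.0666).

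The 2 genes of this list that rose in confined WKO cells, Ccn1 and Ccn2, encode secreted matricellular proteins. Of the 23 tested, 12 had positive differences. Ccn2 had 2.14, 17.6 and 25.7 normalized counts in confined WT replicates 2, 3 and 6, and 196, 120 and 433 in confined WKO replicates 1, 2 and 5. In log2 units it rose by 4.23 (limma adjusted p = 0.011), and the first of these values is below 3 reads. Ccn1 had 11.8, 9.38 and 5.62 against 104, 27.4 and 211, and rose by 3.16 (0.0171). The Ccn1 call was lost in 5 of the alternative fits, among them without any 1 of the confined WT libraries (0.0557 to 0.0689). The Ccn2 call was lost in 1 of the alternative fits. The stromal marker sums of these WKO libraries were 3957, 1072 and 12212, against 237 to 950 in confined WT. The smooth muscle actin Acta2 had 12 to 84 in confined WT and 246, 128 and 895 in confined WKO (2.91, adjusted p = 0.0622). Ccn1, Ccn2 and Acta2 were ordered like the stromal sums over the confined WKO libraries. None of them was so ordered over confined WT replicates 2, 3 and 6, where those sums were 309, 237 and 950. In unconfined WKO replicates 1 and 3 the sums were 2792 and 3290. There Ccn2 had 285 and 189, Ccn1 113 and 103, and Acta2 257 and 377. In unconfined WT the sum, Ccn2 and Acta2 were higher in replicate 3 than in replicate 1, and Ccn1 was lower. The part of stromal cells in these differences was not tested.

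Immediate early genes, which the TCF arm of SRF serves, rose with confinement in both genotypes. Of 10 listed genes 9 were tested, and 5 rose in WT and 7 in WKO, against 0.891% and 1.49% of all genes tested. None fell, against 0.265% and 0.233%, and none passed between genotypes. Their median log2 difference was 2.45 in WT and 2.27 in WKO. Fosb, an AP-1 subunit, rose from 95 and 23 normalized counts to 2011, 1546 and 1779 in WT replicates 2, 3 and 6 (log2 difference 5.2, limma adjusted p = 0.000455). In WKO it rose from 122 and 146 to 4550, 3556 and 8619 in replicates 1, 2 and 5 (5.27, 0.000333). The nuclear receptor gene Nr4a1 rose by 3.62 in WT and 4.28 in WKO (0.00149 and 0.000333). Egr1, a zinc finger factor, rose by 3.33 and 4.002 (0.00767 and 0.00227), and the AP-1 subunit gene Junb by 2.45 and 2.13 (0.00268 and 0.00409). The WT call of Egr1 was lost without either unconfined WT library (0.0881 and 0.0955). That of Junb was lost without unconfined WT replicate 1. Its WKO call was lost in 2 of the alternative fits, among them without unconfined WKO replicate 1. The WT count was 2 without unconfined WT replicate 1 and 3 without replicate 3, and the WKO count was 4 without either unconfined WKO library. With only the WKO libraries fitted the WKO count was 3.

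**Figure D4:**
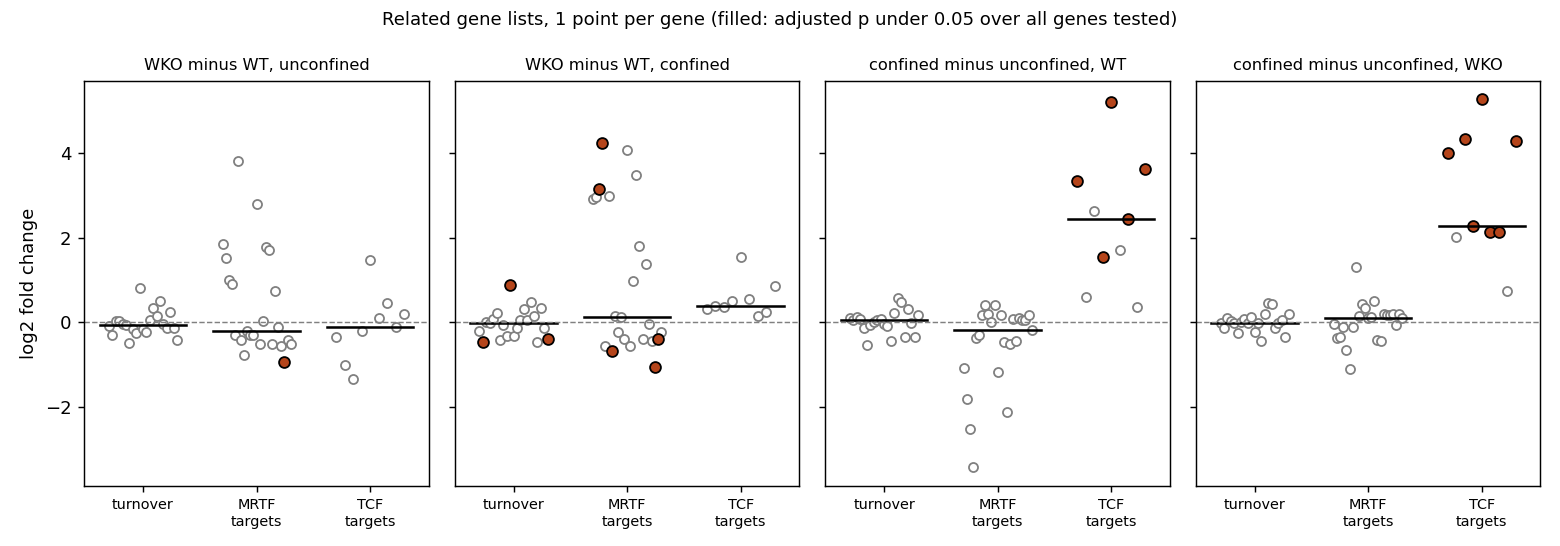
Log2 fold changes (vertical axis) of single genes (points) in the lists of actin turnover genes, MRTF-linked targets and TCF-linked targets, in 4 comparisons; lines are list medians and filled points passed an adjusted p of 0.05. In the confinement panels the filled points are TCF-linked genes, 5 in WT and 7 in WKO.

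Other monomer binders and turnover genes numbered 23, and 21 were tested. Their median log2 differences of WKO from WT were -0.06 in unconfined and -0.0038 in confined cells. In confined cells 1 rose and 2 fell in WKO, against 1.38% and 1.2% of all genes tested, and none passed elsewhere. Wdr1, which helps cofilin to take filaments apart, fell by 0.4 (limma adjusted p = 0.0374), and the capping protein gene Capg fell by 0.46 (0.044). Wdr1 is also in the list of MRTF-linked genes and was counted among its lower genes above. Gmfg, which encodes a protein that prunes Arp2/3 branches, rose by 0.87 (0.0411). The count was 7 without confined WKO replicate 1, where 701 of all genes were called in place of 322. It was 1 without confined WT replicate 6 or confined WKO replicate 5, and 0 without confined WT replicate 2 or 3 or confined WKO replicate 2. It was also 0 without a filter and with the confined libraries fitted alone. None passed among 5 tested coronins of 6, 3 tested calponin family genes of 5, 2 tested muscle actins of 4, or 7 tested SRF cofactors and MRTF regulators of 10. In the last list Elk4, which encodes a TCF protein, had 297 to 326 in unconfined and 604 to 633 in confined WT libraries (log2 difference 0.99, adjusted p = 0.131).

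Likeness of pattern was measured as the root-mean-square difference of centred log2 values over the 10 libraries, among 9226 genes with a mean of at least 100. For Actb, whose own spread was 0.348, the nearest were Slc41a2 (0.0914), Pcyt1a (0.0916) and Basp1 (0.106). For Actg1, with a spread of 0.283, they were Steap3 (0.0924), Actn1 (0.0935) and Aacs (0.101). Actn1 encodes the filament cross-linker alpha-actinin 1. For Srf (0.248) they were Ttc19 (0.101), Sephs1 (0.115) and Fbxl14 (0.126), and for Mrtfb (0.297) Etv1 (0.0983), Impact (0.101) and Sbno1 (0.106). For Coro1a (0.376) they were Mogs (0.112), Nubp1 (0.12) and Galk1 (0.122). The nearest gene was Ckap5 for Mrtfa, Tufm for Pfn1, Cstb for Cfl1, Pfdn5 for Tmsb4x and Aig1 for Tagln2.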

How the data were processed

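RNA sequencing libraries were made with the Watchmaker mRNA kit from 5 ng of total RNA, per the labels' protocols. FastQC, Trim Galore, STAR and the build GRCm38/mm10 are named in the submitters' processing notes, while the counting tool, annotation and use of strand are not given in the sources used here. The deposited signal values are normalized read counts. All values above 0 (100%) were whole multiples of 1 read within 0.001, so whole reads were recovered, and 3 reads correspond to 2.35 to 3.59 normalized counts. Such counts can be less precise than counting error alone would make them, since PCR reads are not independent molecules. Between replicates of a group, the chi-square against counting error was 7.91 to 85.1 per degree of freedom. The source of this spread was not tested.

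Samples were grouped by genotype and treatment labels, and no library was left out. Log2(normalized count + 1) was fitted with limma 3.58.1 in R 4.3.3, 1 mean per group over all 10 libraries, with a mean-variance trend. This scale understates the change of low genes. P-values were adjusted (Benjamini-Hochberg) over 12455 genes, with a threshold of 0.05. edgeR 4.0.16 and DESeq2 1.42.0 on the recovered reads, a pseudocount of 5, no filter on low counts, other scalings, fitting only the groups compared, a replicate block and leaving out each library were alternatives. Exon lengths and positions came from GENCODE M21, and similar transcripts from blastn 2.17.0. The members and lists were chosen with earlier results of these data known. Named genes were all members, up to 4 genes of a list by smallest p, and the 3 genes most like a member in pattern.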

Additional observations from a re-analysis of the deposited data

Results flagged for a closer look

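Srf differed with confinement in opposite directions in the 2 genotypes, without overlap of the libraries, which drew attention to it. Of all genes tested, 17.7% had confined WT libraries wholly below unconfined WT libraries. Confined WKO libraries lay wholly above unconfined WKO libraries for 14.5%. The share of genes with both patterns was not counted. All 3 confined WT libraries (673 to 761 normalized counts) were below both unconfined WT libraries (787 and 861), and all 3 confined WKO libraries (667 to 853) were above both unconfined WKO libraries (469.7 and 624.5). The difference between the confinement effects was 0.70 on the log2 scale, with an unadjusted p of 0.00841 and a limma adjusted p of 0.999 over 12455 genes, so it did not pass the test. With 1 library left out it ran from 0.49, without unconfined WKO replicate 3, to 0.90, without unconfined WKO replicate 1, and its WKO part from 0.3 to 0.71.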

How the results depend on the processing

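Over 537 recomputed values of the members, 491 kept their direction and side of the threshold. Of the others, 29 turned sign, 6 became called and 11 lost their call. Actb (6) and Actg1 (5) in confined WKO against WT lost these calls. They were the only 2 called in the main fit, so most of the 491 were uncalled values that stayed uncalled. The count of members called in unconfined WKO against WT was 0, but 2 by DESeq2 and 1 with only the groups compared fitted, where the calls over all genes were 179 and 189 against 18. In confined cells the count of 2 became 0 without a filter, 0 with only those groups fitted and 0 to 3 with 1 library left out, where calls over all genes went from 322 to 186, 90 and 58 to 701. In WKO confinement it was 0 to 2 with 1 library left out (43 to 1043 over all genes, against 214). Over the alternatives, the confined log2 difference ran from -0.65 to -0.46 for Actb and from -0.62 to -0.46 for Actg1.

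Whether replicate numbers pair the libraries could not be decided. Deviations of libraries with the same number correlated at -0.11 to 0.076, but the 2 deviations of an unconfined group mirror each other. The replicate block gave 245 calls over all genes in unconfined WKO against WT, against 18 in the main fit. There the limma adjusted p was 0.0969 for Actb and 0.0559 for Actg1, and neither was called. With the replicate block, 1 member (Actg1) was called in confined WKO against WT, Actb had an adjusted p of 0.0818, Actb differed by 0.25 with confinement in WT and 0.18 in WKO, Coro1a by -0.4 in confined WKO against WT and -0.12 in WKO confinement, and signs turned for Srf in that comparison (-0.0305), in WT confinement for Pfn1 (0.0365) and Tmsb4x (0.0793), and in WKO confinement for Mrtfb (-0.0751) and Tmsb4x (0.14).

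Upper-quartile scaling, which moved the median of all genes in WKO confinement from -0.01 to -0.12, turned Mrtfb in unconfined WKO against WT (0.0156), Actg1 in WT confinement (-0.0094), and Actg1 (-0.0579), Pfn1 (-0.0898) and Cfl1 (-0.0139) in WKO confinement. With 1 library left out, values that turned sign ran as follows. In unconfined WKO against WT they were -0.0661 to 0.261 for Mrtfa, -0.241 to 0.226 for Mrtfb, -0.452 to 0.0148 for Cfl1 and -0.0269 to 0.379 for Tmsb4x. In confined WKO against WT, Tmsb4x ran from -0.0069 to 0.228. In WT confinement they were -0.213 to 0.115 for Mrtfa, -0.162 to 0.118 for Pfn1, -0.0671 to 0.4001 for Cfl1, -0.243 to 0.163 for Tmsb4x and -0.0062 to 0.14 for Tagln2. In WKO confinement they were -0.0232 to 0.134 for Actg1, -0.0808 to 0.105 for Pfn1, -0.0126 to 0.2009 for Cfl1 and -0.222 to 0.0128 for Tmsb4x. The cause of these changes was not tested. None of these values was called. Alternatives for the related lists were added after seeing the data.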

Other observations

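Confined WKO replicate 1 was unlike the other 2 libraries of its group in some of these genes and not in others; the genes in this paragraph were picked out after their values were seen. Its normalized counts of Actb (74687) and Mrtfb (869) lay close to or below those of unconfined WKO libraries (68441 to 72672 and 953 to 1122), while confined WKO replicates 2 and 5 had 96419 and 98039 of Actb, and 1400 and 1434 of Mrtfb. Myh9, which encodes the heavy chain of non-muscle myosin IIA, had 9151 in replicate 1, 8463 and 8654 in unconfined WKO, and 12219 and 11202 in replicates 2 and 5. Other members in replicate 1 were away from the unconfined level: Srf had 803 (unconfined WKO 469.7 to 624.5), Cfl1 17752 (14130 to 14858), Tmsb4x 47333 (41507 to 41707) and Tagln2 6255 (4782 to 5329). In the same library Fosb (4550), Egr1 (4346) and Junb (12614) were between the values of replicates 2 and 5, while unconfined WKO had at most 146, 377 and 3624.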
